A study of Homo sapiens with 12 samples.

Results

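Genes that carry adenosine and its analogues across membranes, phosphorylate and deaminate them, split inosine and sense adenosine outside the cell were examined by RNA-seq. The cells were HEK293, a line derived from human embryonic kidney. The 9 genes were SLC29A1, SLC29A2, SLC29A3, ADK, NT5C2, ADA, ADAL, PNP and ADORA2B. They were fixed by name, as the rows whose Ensembl identifier carries one of these symbols in GENCODE, and make up 9 of the 26058 genes listed. The series asks whether cordycepin needs AMPK, the energy-sensing kinase, to act on genes induced by growth factors. Wild-type cells (WT) and a line in which both AMPK catalytic subunit genes were disrupted by CRISPR (AMPK KO) were starved of serum for 24 h. Each line then received DMSO alone, DMSO with EGF, or 25 µM cordycepin with EGF. DMSO (0.025% v/v, a percentage given for the groups without cordycepin) or cordycepin dissolved in DMSO was given 20 min ahead of EGF. EGF acted for 30 min. The sources give the EGF concentration with different units and the time in DMSO alone as either 20 or 50 min, so neither is used here. There were 6 groups of 2 libraries, replicates 2 and 3, since the authors discarded replicate 1 of every group as an outlier. AMPK status was carried by 1 line each, so any other difference between these lines cannot be told apart from the knockout, and p-values measure only the spread between these libraries.

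As background, equilibrative nucleoside transporters let nucleosides cross membranes down their gradient. SLC29A1 and SLC29A2 encode the transporters of the cell surface, ENT1 and ENT2, and SLC29A3 encodes ENT3, found mainly in lysosomes. Inside the cell, adenosine kinase (ADK) turns adenosine into AMP, whereas adenosine deaminase (ADA) turns it into inosine, which purine nucleoside phosphorylase (PNP) cleaves. Cordycepin is 3′-deoxyadenosine, and it follows the same routes: it is taken up by the transporters of the cell surface, phosphorylated by ADK and inactivated by ADA. NT5C2 is a cytosolic 5′-nucleotidase that acts mainly on IMP and GMP, ADAL is an ADA-like deaminase that acts on N6-modified AMP, and ADORA2B is the low-affinity A2B receptor for adenosine outside the cell.

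All 9 genes passed the filter on low values, a mean of 0.5 RPKM (read density per length of exon and size of library). Levels below are RPKM after upper-quartile scaling of the libraries. SLC29A3 passed narrowly, at a mean of 0.583 RPKM before scaling, through the groups in which it was higher. Its group means were 0.285 and 0.416 RPKM in AMPK KO without cordycepin, and 0.51 to 0.806 RPKM elsewhere. Its lower level in AMPK KO is therefore not independent of the filter, and it was not tested with the filter at 1 RPKM. Reads recovered from the RPKM steps numbered 3806335 for replicate 3 of WT in DMSO and 12016743 to 25104904 for the other 11 libraries. The shallow library held the fewest reads for each of the 9 genes, down to 16 reads for SLC29A3, and it stood apart from replicate 2 of its group in several of them, so differences in DMSO are also given without it. The HEK293 markers VIM, KRT8, KRT18 and NEFL were present in every library, at 8.26 RPKM or more. NEFM reached at most 0.341 RPKM and PAX2 at most 0.869 RPKM. The leukocyte marker PTPRC stayed at or below 0.0607 RPKM. In bulk RNA, fewer cells of a type and less RNA per cell cannot be told apart. PRKAA1, the gene of the α1 catalytic subunit, was lower in AMPK KO by 0.96 on the log2 scale (SE 0.0967, limma adjusted p = 0.00201), at 7.2 to 8.68 RPKM against 11.2 to 22 RPKM in WT, whereas PRKAA2, that of α2, did not pass, at 5.56 to 7.59 RPKM against 6.95 to 12.2 RPKM in WT (log2 difference −0.48, SE 0.116, limma adjusted p = 0.0547). EGF raised EGR1, an immediate early transcription factor gene, by 6.16 in WT and 5.28 in AMPK KO on the log2 scale, with limma adjusted p = 2.48e-06 and 9.73e-06. FOS, another immediate early gene, rose by 3.29 and 2.50 (limma adjusted p = 0.000593 and 0.00624), calls that were lost in 1 and 5 of 16 alternatives.

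The most abundant of the 9 transcripts per length was SLC29A1, with a mean of 26.4 RPKM ± 8.39 (SD, n = 12 libraries). ADK at 12.7 ± 1.51, PNP at 12.6 ± 2.67 and SLC29A2 at 11.8 ± 2.88 RPKM followed, and these 3 overlapped each other over the libraries. A gap separated them from NT5C2 at 4.44 ± 0.464, ADAL at 3.56 ± 0.296 and ADORA2B at 3.5 ± 1.44 RPKM, of which ADAL and ADORA2B did not differ beyond their spread. ADA at 1.28 ± 0.314 and SLC29A3 at 0.584 ± 0.215 RPKM came last. This order depends on the gene length used. The exon union that reproduces whole reads is 12177 bases for ADA and 8.14 times its canonical transcript, against 1.11 times for SLC29A2. Dividing by the canonical transcript, an alternative chosen after seeing the data, put PNP (49.8) next to SLC29A1 (54.6) and ahead of ADK (29.8), and lifted ADA to 10.4 on the same scale, within the range of NT5C2 at 11.5 and above ADORA2B at 5.38 and ADAL at 4.79. SLC29A1 and PNP then did not separate, SLC29A1 being higher in 6 of 12 libraries, and SLC29A3, at 1.61, stayed last.

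**Figure D1:**
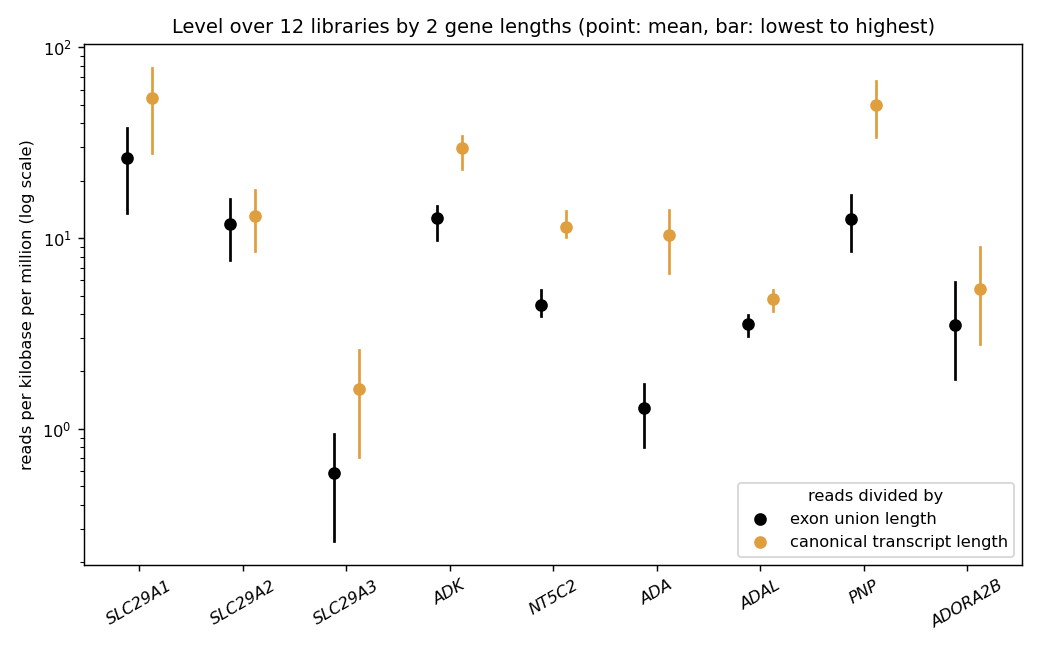
Level of each of the 9 genes in RPKM units (log axis), with the mean over 12 libraries as a point and the lowest to highest library as a bar, for the exon union length (black) and the canonical transcript length (orange). SLC29A3 is lowest with both lengths, SLC29A1 overlaps PNP with the canonical length, and ADA moves from 1.28 to 10.4.

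The 9 levels varied to different degrees. ADAL ran from 3.08 to 3.97 RPKM, a ratio of 1.29 between the highest and lowest library, and ADK from 9.81 to 14.8 RPKM, a ratio of 1.51. ADORA2B spanned a ratio of 3.21. The 3 transporter genes, ADA and ADORA2B varied together: over the 12 libraries, Pearson's r of their log2 levels lay between 0.771 (SLC29A1 with ADA) and 0.941 (ADA with ADORA2B). These 5 genes were picked after their values were seen, and the 12 libraries fall into 6 groups and include the shallow library, so this is a description only.

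Promoter sequence was looked up for the 9 genes. It is printed for SLC29A1, SLC29A3 and ADORA2B, taken from the genes that varied together after their values were seen. RefSeq (GRCh38.p14) gave promoters for 7 of the 9 genes, all but SLC29A2 and ADAL. The stretch printed for SLC29A1 lies inside the span of its gene in GENCODE, which starts at chr6:44219553. Those of SLC29A3 and ADORA2B end at the start of the gene. The 250 bases ahead of the start site of SLC29A3 and ADORA2B, and the 214 bases of SLC29A1 ahead of its annotated exon, are shown on the plus strand, the coding strand of each, with the GC box (GGGCGG on either strand, the core recognised by Sp1-type factors) in capitals.
SLC29A1 chr6:44223345-44223558, plus strand: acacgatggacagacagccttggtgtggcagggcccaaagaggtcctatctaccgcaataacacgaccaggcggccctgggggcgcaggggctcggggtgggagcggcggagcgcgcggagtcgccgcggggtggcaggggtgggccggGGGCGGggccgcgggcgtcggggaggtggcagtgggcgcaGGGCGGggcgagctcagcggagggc
SLC29A3 chr10:71319009-71319258, plus strand: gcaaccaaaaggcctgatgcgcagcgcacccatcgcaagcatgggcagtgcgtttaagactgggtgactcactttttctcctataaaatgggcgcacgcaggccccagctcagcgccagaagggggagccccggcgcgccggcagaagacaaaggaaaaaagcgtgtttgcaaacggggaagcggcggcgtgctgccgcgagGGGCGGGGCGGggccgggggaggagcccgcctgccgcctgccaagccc
ADORA2B chr17:15944880-15945129, plus strand: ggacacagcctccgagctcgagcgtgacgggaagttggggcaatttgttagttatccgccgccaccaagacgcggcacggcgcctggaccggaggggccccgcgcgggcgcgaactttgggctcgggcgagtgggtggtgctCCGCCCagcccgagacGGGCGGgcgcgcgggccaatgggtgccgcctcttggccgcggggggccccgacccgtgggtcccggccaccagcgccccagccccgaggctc
Each window held 2 GC boxes, which overlap by a base in SLC29A3. GC content was 75.7% for SLC29A1, 66.4% for SLC29A3 and 75.2% for ADORA2B. A GC box was found in 9 of the 11 promoters listed for these 7 genes, at least 1 for each gene, and in 42.6% of all 35116 RefSeq promoters, counted over windows of 250 bases. The 7 genes include ADK, NT5C2 and PNP, which were not among those named above as varying together, so the box was not particular to those. The SLC29A3 window also holds the AP-1 letters TGACTCA, present on either strand in 4.2% of all promoters. SLC29A1 has an E-box (CACGTG, 6.34% of all promoters) in 1 of its promoter windows, outside the bases printed. Neither the EGR motif GCGTGGGCG (0.72% of all promoters) nor the cyclic AMP response motif TGACGTCA (1.65%) was found in the 7 members. A match is a description of letters and not of a bound site.

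In the comparison of AMPK KO with WT, the transporter genes stood lower in AMPK KO in both cordycepin-free treatments. In WT, SLC29A1 (ENT1, chr6:44219553-44234142) measured 35.6 and 24.4 RPKM in DMSO and 35.6 and 29.7 RPKM in DMSO+EGF. In AMPK KO it measured 20.5 and 13.5 RPKM in DMSO and 19.5 and 19.4 RPKM in DMSO+EGF. The 4 WT values lay above the 4 AMPK KO values. The log2 difference was −0.81 in DMSO (SE 0.283, limma adjusted p = 0.163) and −0.73 in DMSO+EGF (SE 0.283, limma adjusted p = 0.173). In DMSO it was −1.08 without the shallow library, −0.54 without WT replicate 2 and −0.51 without AMPK KO replicate 3. SLC29A2 (ENT2, chr11:66362521-66372214) measured 12.7 and 11 RPKM in WT in DMSO and 16.1 and 15.3 RPKM with EGF, and 8.33 and 7.69 RPKM in AMPK KO in DMSO and 9.38 and 9.35 RPKM with EGF. Its groups did not overlap in either treatment, with log2 differences of −0.53 (SE 0.148, limma adjusted p = 0.112) and −0.71 (SE 0.148, limma adjusted p = 0.0509), the former being −0.63 without the shallow library (limma adjusted p = 0.0496). SLC29A3 (ENT3, chr10:71319259-71381423) measured 0.826 and 0.638 RPKM in WT in DMSO and 0.935 and 0.676 RPKM with EGF, against 0.312 and 0.257 RPKM and 0.381 and 0.452 RPKM in AMPK KO. It was the rarest transcript, and its groups again did not overlap. Its log2 differences of −0.65 in DMSO and −0.50 in DMSO+EGF (limma adjusted p = 0.11 and 0.144) are understated by the pseudocount of 0.5, and became −1.44 and −0.96 (adjusted p = 0.0256 and 0.0459) with limma's voom on the recovered reads. Without the shallow library the DMSO difference was −0.76 (limma adjusted p = 0.0447).

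The enzymes did not share a direction. ADK (adenosine kinase, chr10:74151202-74709963) measured 13.9 and 13.7 RPKM in WT and 13 and 13.6 RPKM in AMPK KO in DMSO, and 12.7 and 13.9 RPKM against 13.4 and 12.5 RPKM in DMSO+EGF. The lines overlapped in DMSO+EGF and lay next to each other in DMSO, and the 95% interval of the difference averaged over treatments ran from −0.31 to 0.065 on the log2 scale. NT5C2 (the 5′-nucleotidase, chr10:103087185-103277605) ran from 3.89 to 5.37 RPKM in WT and from 3.96 to 4.88 RPKM in AMPK KO. ADA (adenosine deaminase, chr20:44584896-44652252) measured 1.72 and 1.08 RPKM in WT in DMSO and 1.51 and 1.62 RPKM with EGF, against 0.803 and 0.847 RPKM and 1.03 and 0.97 RPKM in AMPK KO. The ADA groups did not overlap, and the log2 difference was −0.50 in DMSO (SE 0.193, limma adjusted p = 0.193) and −0.46 in DMSO+EGF (SE 0.193, limma adjusted p = 0.199). In DMSO it was −0.74 without the shallow library (limma adjusted p = 0.0324) and −0.25 without WT replicate 2 (limma adjusted p = 0.522). ADAL (the ADA-like deaminase, chr15:43330672-43354569) was the exception in direction: its 6 AMPK KO libraries, at 3.63 to 3.97 RPKM, lay above its 6 WT libraries, at 3.08 to 3.56 RPKM. The difference was small, 0.18 on the log2 scale (SE 0.0737, limma adjusted p = 0.224), and 1.65% of all genes tested had 6 AMPK KO values above 6 WT values. PNP (chr14:20461992-20477094) measured 11.4 and 16.4 RPKM in WT and 13.7 and 10.3 RPKM in AMPK KO in DMSO, and 11.9 and 13.2 RPKM against 12 and 12.9 RPKM in DMSO+EGF, so that its lines overlapped.

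The receptor gene had the largest log2 difference between the lines among the 9 genes in DMSO and DMSO+EGF with limma on RPKM. With voom in DMSO, SLC29A3 (−1.44) came ahead of ADORA2B (−1.39). ADORA2B (chr17:15945130-15975746) measured 5.86 and 3.07 RPKM in WT in DMSO and 4.91 and 5.6 RPKM in DMSO+EGF. In AMPK KO it measured 1.91 and 1.82 RPKM in DMSO and 1.93 and 2.31 RPKM in DMSO+EGF. No AMPK KO value reached a WT value in these treatments. The log2 difference was −1.01 in DMSO (SE 0.263, limma adjusted p = 0.102) and −1.13 in DMSO+EGF (SE 0.263, limma adjusted p = 0.0613). Without the shallow replicate 3 of WT in DMSO, the DMSO difference was −1.43 (limma adjusted p = 0.012), and without replicate 2 it was −0.59 (limma adjusted p = 0.217).

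**Figure D2:**
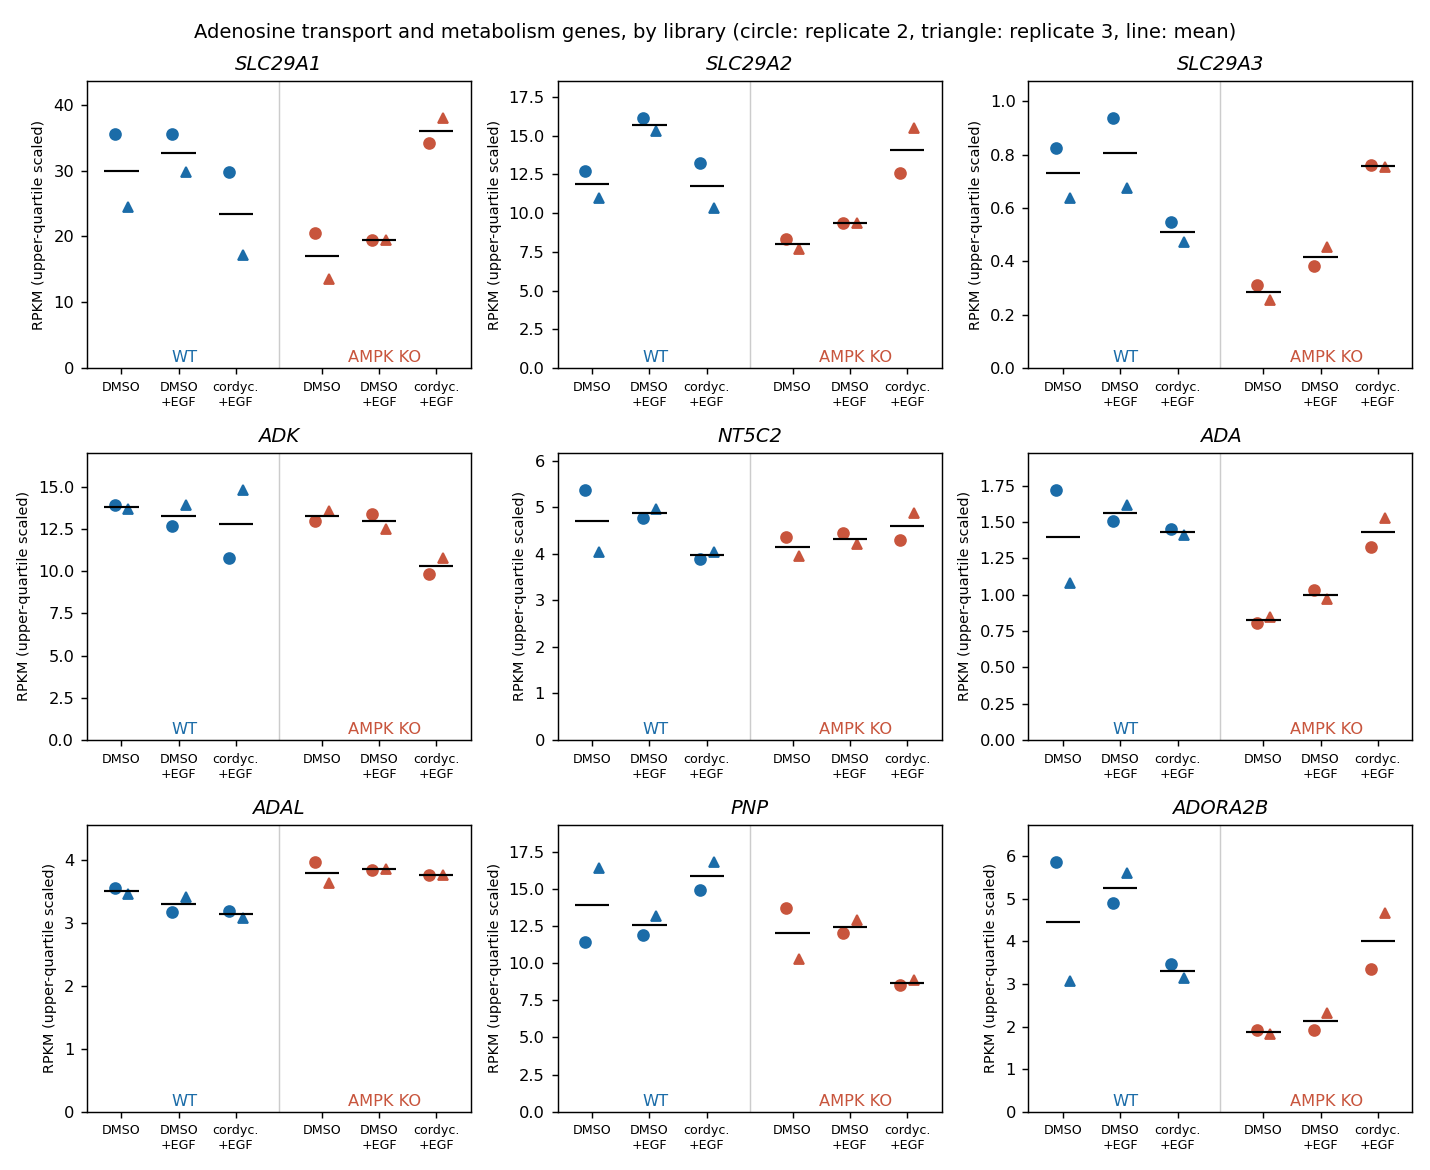
Upper-quartile-scaled RPKM of the 9 genes in each library (circle for replicate 2, triangle for replicate 3, line for the mean of 2), with WT in blue and AMPK KO in red. In DMSO and DMSO+EGF the red points of SLC29A1, SLC29A2, SLC29A3, ADA and ADORA2B lie below the blue ones, and ADAL is the gene whose 6 red points lie above all 6 blue points.

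With limma, 0 of the 9 genes passed an adjusted p under 0.05 between the lines, whether averaged over the 3 treatments (4.34% of the 22067 genes tested passed), in DMSO (0.44%), in DMSO+EGF (1.74%) or in cordycepin+EGF (0.118%). At an unadjusted p under 0.05, 6 of 9 passed on average over treatments, against 20.4% of all genes. Of the 9, 5 passed and were lower in AMPK KO, against 9.44% of all genes. These averages were −0.33 for SLC29A2 (SE 0.0852), −0.28 for SLC29A3 (SE 0.102), −0.32 for ADA (SE 0.112), −0.35 for PNP (SE 0.107) and −0.64 for ADORA2B (SE 0.152), with limma adjusted p from 0.0515 to 0.17, beside that of ADAL given above. The averages pool unlike treatments. In cordycepin+EGF the estimates were 0.25 for SLC29A2, 0.32 for SLC29A3, 0.23 for ADORA2B and −0.00062 for ADA, with 95% intervals that included 0. The PNP estimate was −0.20 in DMSO, −0.008 in DMSO+EGF and −0.83 in cordycepin+EGF. Within treatments, the counts at an unadjusted p under 0.05 were 5 of 9 in DMSO (21.3%), 5 of 9 in DMSO+EGF (22.5%) and 2 of 9 in cordycepin+EGF (13.7%). With 2 libraries per group, groups without overlap are common: 6 of 9 genes were lower in this way in DMSO (23.2% of all genes) and 6 of 9 in DMSO+EGF (31.6%). SLC29A1, SLC29A2, SLC29A3, ADA and ADORA2B were so in both DMSO and DMSO+EGF, 5 of 9 against 12.3% of all genes. The median log2 difference of the 9 genes was −0.50 in DMSO and −0.46 in DMSO+EGF, beside 0.0093 and −0.0047 over all genes tested. The test on recovered reads called more genes than the test on RPKM: voom called 5 of 9 on average over treatments (10.4% of all genes it tested), SLC29A2, SLC29A3, ADA, PNP and ADORA2B. It called 4 of 9 in DMSO (8%), 4 of 9 in DMSO+EGF (11.5%) and 1 of 9, PNP, in cordycepin+EGF (1.62%). Without the shallow replicate 3 of WT in DMSO, limma on RPKM called 3 of 9 on average over treatments (13.1% of all genes; SLC29A2, ADA and ADORA2B) and 4 of 9 in DMSO (13.9%; the same 3 and SLC29A3).

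**Figure D3:**
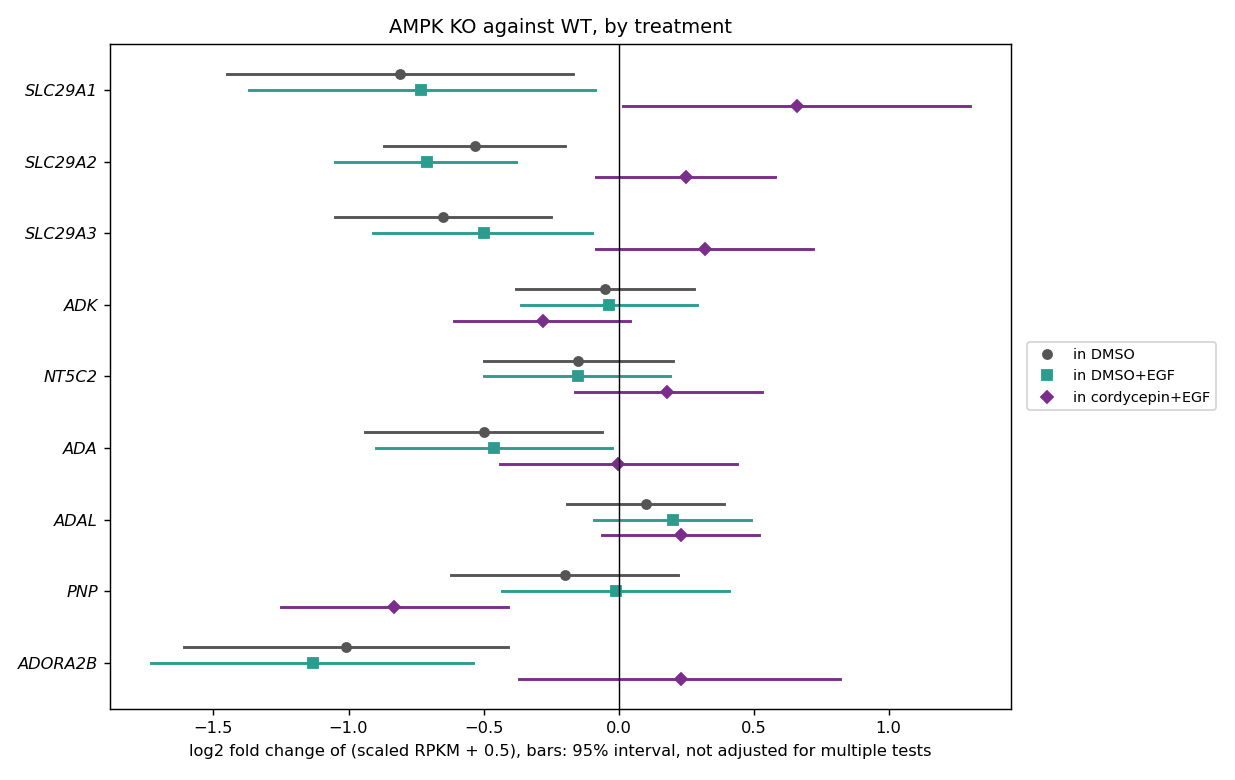
Log2 difference of AMPK KO from WT (point) with its 95% interval (bar), not adjusted for multiple tests, for the 9 genes in DMSO, DMSO+EGF and cordycepin+EGF. ADORA2B reaches −1.13 in DMSO+EGF. In cordycepin+EGF the points of the transporter genes lie above 0, with intervals that include 0 for SLC29A2 and SLC29A3, while that of PNP lies at −0.83.

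No effect of EGF on these genes passed the test. With limma, 0 of 9 passed an adjusted p under 0.05 in WT (0.0227% of all genes passed) and 0 of 9 in AMPK KO (0.0136%). Voom also called 0 of 9 in WT (0.0329%) and in AMPK KO (0.0188%). The unadjusted count was 1 of 9 in WT (9.72% of all genes) and 0 of 9 in AMPK KO (2.42%). Without overlap, SLC29A2 was higher (18.7% of all genes) and ADAL lower (18%) with EGF in WT, and 4 of 9, SLC29A2, SLC29A3, ADA and ADORA2B, were higher in AMPK KO (20.2%). The gene with an unadjusted p under 0.05 was SLC29A2, at 16.1 and 15.3 RPKM with EGF against 12.7 and 11 RPKM in DMSO in WT, a log2 difference of 0.39 (SE 0.148, limma adjusted p = 0.497). The EGF effect in AMPK KO minus that in WT passed for 0 of 9 genes with limma, where 0% of all genes passed, also for 0 of 9 at an unadjusted p under 0.05 (8.69% of all genes) and for 0 of 9 with voom (0%). Both lines share their EGF-treated libraries with the cordycepin comparison that follows.

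Under cordycepin the mean levels of the transporter and receptor genes lay below those with EGF alone in WT and above them in AMPK KO, but neither the effect within a line nor the difference between the lines passed the test on RPKM. In WT with EGF, SLC29A1 measured 29.7 and 17.2 RPKM with cordycepin against 35.6 and 29.7 RPKM without it. The 95% interval of the log2 difference, −1.15 to 0.13, included 0. In AMPK KO it measured 34.2 and 37.9 RPKM with cordycepin against 19.5 and 19.4 RPKM without it. The WT groups met at 29.7 RPKM, whereas in AMPK KO both cordycepin values lay far above the values without it, with a log2 difference of 0.87 (SE 0.283, limma adjusted p = 0.133). Between the lines under cordycepin, SLC29A1 differed by 0.66 (SE 0.283, limma adjusted p = 0.353), which was 0.27 without WT cordycepin replicate 3 and 1.04 without replicate 2. SLC29A2 measured 13.2 and 10.3 RPKM with cordycepin against 16.1 and 15.3 RPKM without it in WT, a log2 difference of −0.41 (SE 0.148, limma adjusted p = 0.279) that was −0.58 without WT cordycepin replicate 2 and −0.24 without replicate 3. In AMPK KO it measured 12.6 and 15.5 RPKM against 9.38 and 9.35 RPKM, a log2 difference of 0.56 (SE 0.148, limma adjusted p = 0.094). The values moved apart in opposite directions without overlap in each line. SLC29A3 followed the same order, with 0.548 and 0.472 RPKM against 0.935 and 0.676 RPKM in WT and 0.76 and 0.755 RPKM against 0.381 and 0.452 RPKM in AMPK KO. In WT the 95% interval of its log2 difference, −0.77 to 0.037, included 0. Within AMPK KO its log2 difference was 0.46 (SE 0.177, limma adjusted p = 0.184), and 0.86 with voom (adjusted p = 0.0963).

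Of the enzymes that act on cordycepin itself, ADK measured 10.8 and 14.8 RPKM with cordycepin against 12.7 and 13.9 RPKM without it in WT, so that the groups overlapped. In AMPK KO it measured 9.81 and 10.8 RPKM against 13.4 and 12.5 RPKM. These groups did not overlap, and the 95% interval of the log2 difference, −0.65 to 0.0089, included 0 (limma adjusted p = 0.239). ADA measured 1.45 and 1.41 RPKM with cordycepin against 1.51 and 1.62 RPKM in WT, and 1.33 and 1.53 RPKM against 1.03 and 0.97 RPKM in AMPK KO. PNP had the reverse order of the transporters. It measured 14.9 and 16.8 RPKM with cordycepin against 11.9 and 13.2 RPKM in WT, and 8.52 and 8.84 RPKM against 12 and 12.9 RPKM in AMPK KO. The log2 difference within AMPK KO was −0.50 (SE 0.186, limma adjusted p = 0.175), and AMPK KO against WT under cordycepin differed by −0.83 (SE 0.186, limma adjusted p = 0.175). NT5C2 measured 3.89 and 4.05 RPKM against 4.78 and 4.97 RPKM in WT and overlapped in AMPK KO. ADAL, at 3.2 and 3.08 RPKM against 3.18 and 3.42 RPKM in WT, overlapped there, and in AMPK KO its values of 3.76 and 3.77 RPKM lay just below 3.85 and 3.86 RPKM.

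ADORA2B measured 3.46 and 3.15 RPKM with cordycepin against 4.91 and 5.6 RPKM in WT, and 3.35 and 4.66 RPKM against 1.93 and 2.31 RPKM in AMPK KO. Under cordycepin the lines overlapped, whereas without cordycepin they did not. In WT the 95% interval of the log2 difference, −1.19 to 0.0019, included 0. The log2 difference within AMPK KO was 0.77 (SE 0.263, limma adjusted p = 0.148).

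With limma, 0 of 9 genes passed for cordycepin in WT (0.00453% of all genes passed) and 0 of 9 in AMPK KO (0.471%). At an unadjusted p under 0.05 the counts were 1 of 9 in WT (16% of all genes) and 5 of 9 in AMPK KO (21.8%). Voom called 0 of 9 in WT (3.5%) and 1 of 9 in AMPK KO (5.39%), SLC29A1 at an adjusted p of 0.0452. Without overlap, 6 of 9 genes were lower with cordycepin in WT (24.7% of all genes), and in AMPK KO 5 of 9 were higher (32.2%) and 3 of 9 lower (27%). The difference between the lines in the cordycepin effect was tested as an interaction, which shares the DMSO+EGF libraries with both effects. It passed for 0 of 9 genes with limma, where 0% of all genes passed, and at an unadjusted p under 0.05 for 5 of 9 against 21.4% of all genes. These were SLC29A1 at 1.39 (SE 0.4), SLC29A2 at 0.96 (SE 0.209), SLC29A3 at 0.82 (SE 0.251), PNP at −0.83 (SE 0.262) and ADORA2B at 1.36 (SE 0.372) on the log2 scale, with limma adjusted p from 0.122 to 0.146. Voom called the same 5 of 9, with adjusted p from 0.018 to 0.0368, where it called 9.69% of all genes. Cordycepin values moved in opposite directions in the lines, without overlap, for 6 of 9 genes (those 5 and ADA) against 19.2% of all genes. SLC29A1 counts as without overlap in WT only beyond the digits printed, since its groups met at 29.7 RPKM there. For ADA the 95% intervals of the cordycepin effect, −0.54 to 0.34 in WT and −0.074 to 0.80 in AMPK KO, both included 0.

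**Figure D4:**
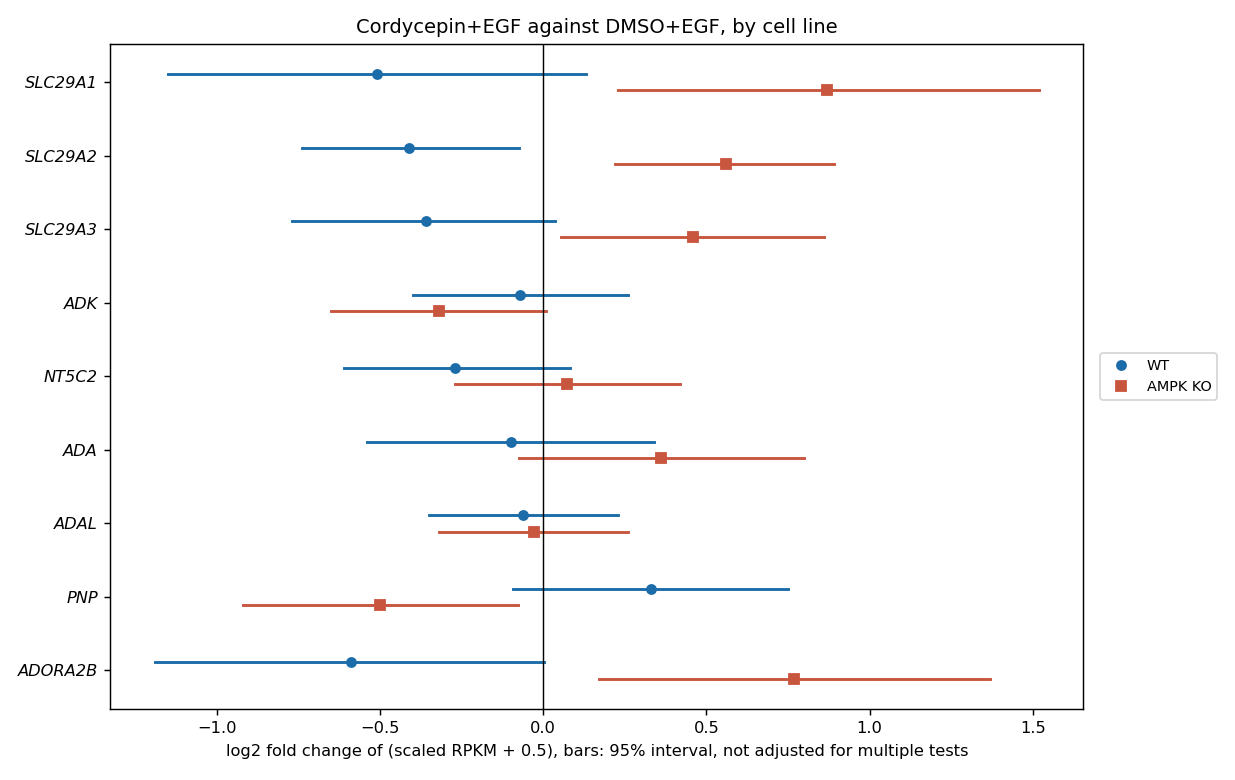
Log2 difference of cordycepin+EGF from DMSO+EGF (point) with its 95% interval (bar), not adjusted for multiple tests, in WT (blue) and AMPK KO (red). SLC29A1, SLC29A2, SLC29A3 and ADORA2B have blue points below 0 and red points above 0, and PNP has the reverse. ADK, NT5C2, ADA and ADAL have intervals that include 0 in both lines.

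For 3 of the genes the transcripts with the most similar log2 levels over the 12 libraries were listed by Pearson's r, as a description. For SLC29A1 these were TMEM185B (0.972), TRAM2 (0.967) and DRAM2 (0.964). For ADK they were KPNA2 (0.943), NDUFAF4 (0.941) and MSH6 (0.937), and for ADORA2B they were SORL1 (0.98), SFXN4 (0.978) and BACE2 (0.975). All of them share the libraries, the depth differences and the 6 groups with the gene they were matched to.

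The wider purine pathway was read from lists of 64 further genes, of which 55 were in the table and 45 were tested. Between the lines on average over treatments, 2 of 45 were higher and 2 of 45 lower in AMPK KO with limma, where 2.8% and 1.54% of all genes passed in these directions. IMPDH2, the rate-limiting enzyme of guanine nucleotide synthesis, was higher in AMPK KO, at 38.9 to 48.5 RPKM against 29.6 to 37.7 RPKM in WT, a log2 difference of 0.48 (SE 0.0701, limma adjusted p = 0.00835). It was called in 23 of 23 alternatives. ATIC, which completes IMP synthesis and acts on the AMPK-activating intermediate ZMP, differed by 0.48 (SE 0.09, limma adjusted p = 0.0224), at 34.6 to 46 RPKM in WT and 45.4 to 65.2 RPKM in AMPK KO. NT5M, the mitochondrial deoxynucleotidase, fell by 0.56 on the log2 scale (SE 0.116, limma adjusted p = 0.0316), at 0.404 to 1.05 RPKM against 1.05 to 1.63 RPKM in WT. ENTPD6, a nucleoside diphosphatase, fell by 0.27 (SE 0.058, limma adjusted p = 0.0366), at 7.47 to 9.95 RPKM against 9.21 to 11.9 RPKM in WT. The calls of ATIC, NT5M and ENTPD6 were lost in 6, 10 and 12 of 23 alternatives, mostly those leaving out a library. In DMSO+EGF alone 3 of 45 passed, against 1.74% of all genes: IMPDH2 rose by 0.60 and ENTPD6 fell by 0.59 on the log2 scale, and NT5M fell from 1.63 and 1.33 RPKM in WT to 0.585 and 0.404 RPKM in AMPK KO, with limma adjusted p from 0.0352 to 0.0496. The calls of IMPDH2, ENTPD6 and NT5M were lost there in 9, 6 and 11 of 16 alternatives. In the other 8 comparisons 0 of 45 passed with limma, and voom called 0 to 6 of the 43 it tested (0% to 9.69% of all genes). Counts of 45 at an unadjusted p under 0.05 are given beside the share of all genes. Between the lines they were 11 in DMSO (21.3%) and 11 in cordycepin+EGF (13.7%). For EGF they were 6 in WT (9.72%), 1 in AMPK KO (2.42%) and 7 for the interaction (8.69%). For cordycepin they were 4 in WT (16%), 17 in AMPK KO (21.8%) and 18 for the interaction (21.4%).

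**Figure D5:**
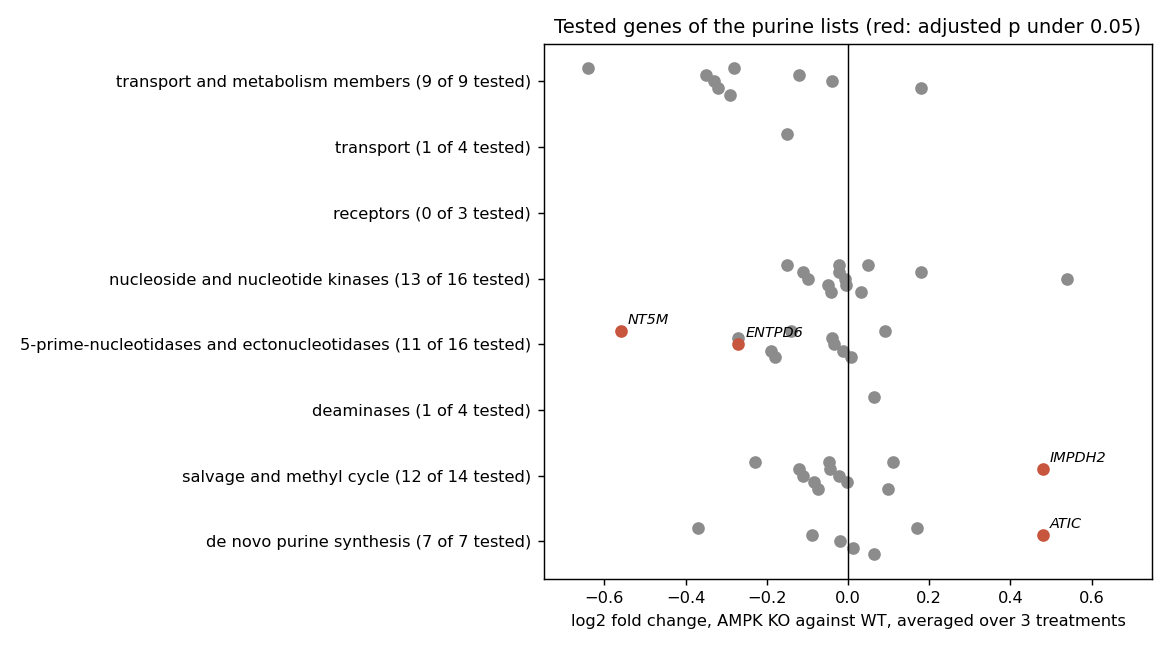
Log2 difference of AMPK KO from WT, averaged over 3 treatments, for the 9 genes (top row) and the tested genes of 7 purine lists, with a point per gene and red for an adjusted p under 0.05. The red points are NT5M, ENTPD6, IMPDH2 and ATIC, and the 9 genes of the top row run from −0.64 (ADORA2B) to 0.18 (ADAL) with none in red.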

How the data were processed

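RNA-seq libraries of HEK293 cells, stranded and ribo-depleted per the labels, were read as paired 150-base reads. The authors used Rsubread (version not given in the sources used here) for mapping to GRCh38.p13 and for counting, and deposited unscaled RPKM values of 26058 genes. The submitters' processing notes also name FastQC and hg38. Whether counting used the strand is not given, and SLC29A2, SLC29A3, ADK, NT5C2, ADA and PNP share their span with antisense genes in GENCODE release 44, so reads of both strands may not be told apart there. The 2 rows naming no gene, which hold the upper quartile and its scaling, were left out. Symbols, exon unions and coordinates (GRCh38) came from GENCODE release 44, which matched 26029 genes.

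RPKM values were divided by each library's upper quartile and multiplied by the mean upper quartile. log2(value + 0.5) of the 22067 genes with a mean of at least 0.5 RPKM was tested with limma 3.58.1 in R 4.3.3 (6 group means, eBayes with trend, two-sided), and p-values were Benjamini-Hochberg adjusted over all genes tested in each of 10 comparisons. Fold changes are on that scale, which understates low genes. Whole reads (within 0.05) were recovered from the RPKM steps for 96.25% of the genes, the 9 members included, and tested with limma's voom as an alternative. Other alternatives were pseudocounts of 0.1 and 1, other filters and scalings, replicate blocks, narrower fits, array weights and leaving out each library. Depth ranged from 3806335 to 25104904 recovered reads. The fits were tested on simulated data.

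The 9 members were fixed by name and the purine lists by textbook function, all with earlier results of these data known. A member's log2 difference is printed where its unadjusted p was under 0.05, with these exceptions. Intervals were added for ADK, for cordycepin in WT and for the cordycepin effect on ADA in each line. Differences between the lines within a treatment were added for SLC29A2, SLC29A3, ADA, PNP and ADORA2B. ADA's cordycepin interaction is given because its signs were opposite in the lines. Pathway genes are named where an adjusted p was under 0.05. The 3 genes with the highest Pearson's r were named for ADK, SLC29A1 and ADORA2B. PRKAA1, PRKAA2, EGR1 and FOS served as checks.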

Additional observations from a re-analysis of the deposited data

Results flagged for a closer look

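The cordycepin effect had opposite signs in the lines, without overlap of the libraries compared, for 6 of the 9 genes. For SLC29A1 the WT groups met at 29.7 RPKM and were apart only beyond the digits printed. The difference between the effects was tested as an interaction. Cordycepin+EGF minus DMSO+EGF in AMPK KO exceeded the same difference in WT by 1.39 for SLC29A1 (SE 0.4, limma adjusted p = 0.133), 0.96 for SLC29A2 (SE 0.209, limma adjusted p = 0.122) and 0.82 for SLC29A3 (SE 0.251, limma adjusted p = 0.139) on the log2 scale. It exceeded it by 1.36 for ADORA2B (SE 0.372, limma adjusted p = 0.126) and 0.46 for ADA (SE 0.273, limma adjusted p = 0.358). For PNP it was −0.83 (SE 0.262, limma adjusted p = 0.146). None of the 6 passed an adjusted p under 0.05 with limma on RPKM, and 19.2% of all genes tested moved in opposite directions in this way. Within WT, SLC29A2 was the only one of the 6 with an unadjusted p under 0.05 for cordycepin. The check genes EGR1 and FOS had interactions of 1.12 (SE 0.263) and 1.21 (SE 0.296), each with a limma adjusted p of 0.122. EGR1 was lower with cordycepin in both lines, so its sign did not reverse. In WT it measured 55.1 and 51 RPKM with cordycepin against 227 and 202 RPKM (limma adjusted p = 0.0439). That call was lost in 8 of 16 alternatives. In AMPK KO it measured 45.4 and 71.4 RPKM against 106 and 106 RPKM (limma adjusted p = 0.0644). The log2 difference of FOS was −0.76 in WT and 0.45 in AMPK KO, and neither passed with limma. The effects in both lines rest on 2 libraries per group.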

How the results depend on the processing

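The 9 genes gave 30 log2 differences with an unadjusted p under 0.05, recomputed 537 times: 491 kept their direction without a call, 46 gained a call and 0 changed sign. None was called to begin with, so none could lose a call. The number of the 9 called was 0 in each comparison and moved as follows. For AMPK KO against WT on average over treatments it was 1 with a pseudocount of 0.1 (4.25% of all genes called), 1 with median-ratio scaling (4.3%), 1 with array weights (4.16%; ADORA2B each time) and 5 with voom (10.4%), and 0 to 3 with a library left out. The latter were 2 without WT DMSO replicate 2 (5.11%; PNP and ADORA2B) and 3 without WT DMSO replicate 3 (13.1%; SLC29A2, ADA and ADORA2B). In DMSO it was 4 with voom (8%) and 0 to 4 with a library left out, the 4 being SLC29A2, SLC29A3, ADA and ADORA2B without WT DMSO replicate 3 (13.9%). In DMSO+EGF it was 1 with a filter at 1 RPKM (2.31%), 3 when fitted on the compared groups alone (10%), 5 with array weights (22.8%) and 4 with voom (11.5%). In cordycepin+EGF it was 1 with voom (1.62%). For cordycepin in AMPK KO it was 1 with array weights (5.41%) and 1 with voom (5.39%), and for the cordycepin interaction 2 on the compared groups alone (5.11%), 2 with array weights (6.6%) and 5 with voom (9.69%). The cause of these shifts was not tested. The comparison averaged over treatments has no narrower fit.

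Counts over all genes varied with the setting. Averaged over treatments 957 genes were called (305 to 2890 over the alternatives), in DMSO 97 (1 to 3065), in DMSO+EGF 383 (6 to 5041) and in cordycepin+EGF 26 (2 to 345). EGF called 5 in WT (1 to 702) and 3 in AMPK KO (1 to 4), cordycepin 1 in WT (0 to 743) and 104 in AMPK KO (0 to 1193), and the interactions 0 for EGF (0 to 13) and 0 for cordycepin (0 to 2058). Without WT DMSO replicate 3, 2890 genes were called on average and 3065 in DMSO, and without WT DMSO replicate 2, 702 for EGF in WT. Other scalings moved the median of all genes by at most 0.049 on the log2 scale.

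Replicate numbers are shared by the groups, but the labels do not say what a number marks. Deviations of same-numbered libraries correlated at 0.136 to 0.314 across genes within WT and at −0.122 to 0.031 within AMPK KO. Between groups of different lines they correlated at −0.081 to 0.322. A replicate block, also when fitted within each line (for comparisons between lines chosen after seeing the data), called 0 of the 9 genes in every comparison, as without it. With 2 libraries per group and 3806335 reads in the shallowest, SLC29A3 and ADORA2B rest on as few as 16 and 29 reads.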
